A study of Mus musculus with 9 samples.

Results

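The stronger of the Ebf1 knockdowns in a series on mouse 3T3-L1 fat cells was compared with its control: 3 arrays of cells that carried short hairpin 2 against Ebf1 and 3 arrays of cells that carried a scrambled hairpin, chosen by their titles, 6 of the 9 arrays in all. Every named gene of the array entered, 1 probe set a gene, which gave 18193 genes, of which 12735 were bright enough to test. 3T3-L1 is a mouse fibroblast-like line that can be turned into fat cells in a dish. The differentiated cells were infected with lentivirus, and all groups shared the same handling: 3 to 4 rounds of infection, then puromycin at 5 µg/ml over a minimum of 8 days. RNA was amplified with a NuGEN Ovation WTA Pico kit and labelled with biotin. The scrambled cells therefore also carried virus and drug, and no uninfected cells were among the 9 arrays. The remaining 3 arrays carried hairpin 1, a weaker knockdown, which is set beside hairpin 2 at the end. They also entered the choice of probe set, the brightness filter and the estimate of spread; with the 6 arrays alone 5120 genes changed with hairpin 2, against 4430. The labels do not say whether the 3 repeats of a group were separate cultures, so the p-values measure the spread between arrays, which may be technical.

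Ebf1 belongs to the early B cell factors, a small family of DNA-binding proteins. It is best known for setting up the B lymphocyte program in bone marrow, and it is also made in fat cell precursors and in mature fat cells, where it acts beside Pparg and the C/EBP factors. It binds a palindrome as a dimer and can both open chromatin and recruit other regulators. Genes are described below by what they do, from secreted factors and receptors through transcription factors to enzymes of metabolism and cell death.

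All levels are log2 array values, so a difference of 1 is a doubling. Levels of different probe sets were compared only coarsely, to choose the brightest, to filter and rank genes by level, and to summarise markers. Array medians lay between 6.31 and 6.345, correlations over the tested genes were 0.9959 to 0.9983 within a group and 0.9742 to 0.9768 between the scrambled and hairpin 2 groups, and the median SD of a gene was 0.066 with the scrambled hairpin and 0.0929 with hairpin 2. With 3 arrays a group, their number limits the precision. Adipocyte markers were bright in both groups: the median of 13 markers was 12.99 to 13.26 on the scrambled arrays and 12.88 to 12.94 on the hairpin 2 arrays.

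The target was lower. Ebf1 read 10.12, 10.15 and 10.31 on the scrambled arrays and 8.90, 8.72 and 9.20 on the hairpin 2 arrays, so the groups did not overlap. The fall was 2.38-fold (log2 difference -1.25, SE 0.113, limma adjusted p = 2.98e-07). The 3 other Ebf1 probe sets bright enough to test also fell, by -1.07, -1.62 and -1.30. Signal thus remained well above the detection floor, and how much Ebf1 protein remained was not measured.

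With hairpin 2, 4430 of 12735 genes changed at a limma adjusted p below 0.05, which is 34.8% of the genes tested. Of these, 2740 were higher (21.5%) and 1690 lower (13.3%). In all but 60 of the 4430 the 3 hairpin 2 arrays lay wholly on one side of the 3 scrambled arrays; over all tested genes, called or not, this held for 49.4%. Rises were more frequent and falls were deeper. At a size of at least 1 log2 unit, 243 genes were higher (1.91%) and 180 lower (1.41%), whereas at 2 units or more 21 were higher and 71 lower, and at 3 or more only 1 rose and 46 fell. The deep falls were mostly in interferon, antigen presentation, tripartite-motif and chemokine families: their 201 tested genes held 57 of the 71 falls of 2 units or more. Another 4 were gene models without a proper name, and the other 10 are described below. The families and the gene models are left out of the lists of strongest genes so that others can be seen. The families were recognised by gene symbol, so the genes that remain can still include some that respond to interferon.

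The size of the change varied with the level at which a gene started. When the tested genes were ranked by scrambled level and cut into 4 equal parts, the dimmest part (5.15 to 7.07) held 59 rises and 4 falls of at least 1 unit. The brightest part (10.62 to 14.94) held 20 such rises and 95 such falls. An array cannot show a fall of a gene that starts near its floor, nor a full rise of one near its ceiling. The brightness filter, which used the mean of all 9 arrays, also bears on this contrast. Through brighter knockdown arrays it let in 143 genes with a scrambled mean below its level, all in the dimmest part. Of these, 57 were called higher, whatever the size. Conversely, 116 tested genes had a hairpin 2 mean below that level, and 30 of them were called lower. The level used for ranking is also the one subtracted in each difference. What share of the contrast these limits and choices make up was not tested.

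**Figure D1:**
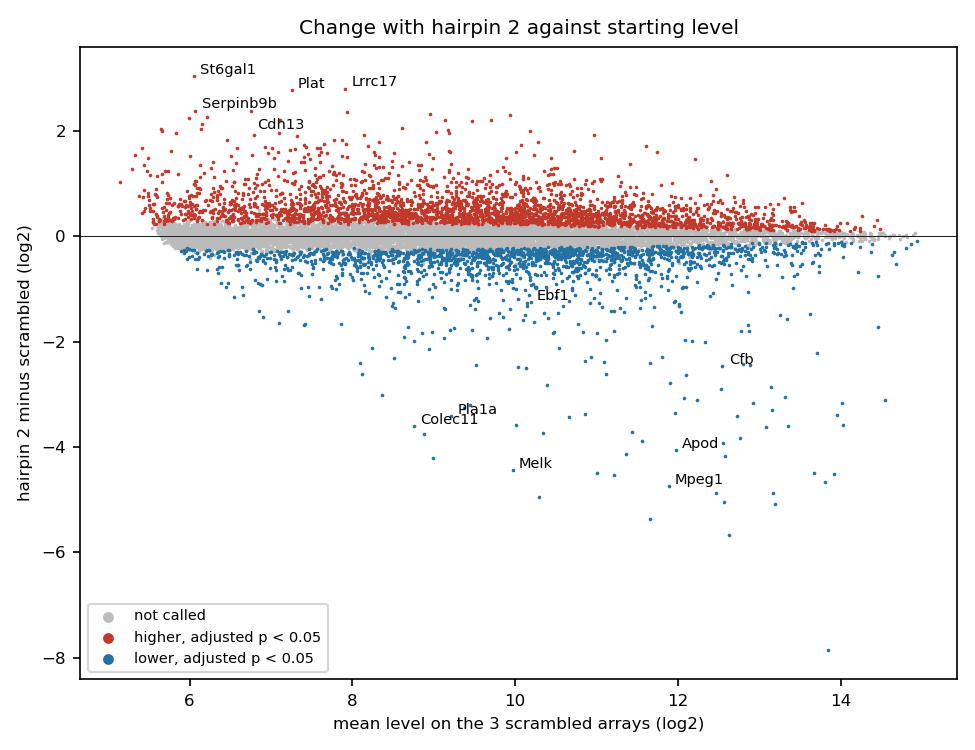
Each point is 1 of the 12735 tested genes; the horizontal axis is the mean level on the 3 scrambled arrays (log2) and the vertical axis the hairpin 2 minus scrambled difference (log2), with red for the 2740 higher and blue for the 1690 lower genes. Falls reach below -4 among genes that started bright, while St6gal1 at 3.05 is the highest rise.

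Among named genes outside those families, the largest rise was that of St6gal1, a Golgi enzyme that caps glycans with sialic acid. St6gal1 read 5.81, 6.30 and 6.04 with the scrambled hairpin and 9.13, 9.08 and 9.08 with hairpin 2. It thus went from near the floor to clear signal, 8.28-fold higher (log2 difference 3.05, SE 0.110, limma adjusted p = 3.80e-12). Lrrc17, a secreted leucine-rich repeat protein, read 7.96, 7.91 and 7.86 against 10.69, 10.66 and 10.81 (2.81, adjusted p = 2.51e-13). Plat, tissue plasminogen activator, read 7.14, 7.26 and 7.35 against 10.12, 9.87 and 10.08 (2.77, adjusted p = 1.62e-12). In each of these 3 genes every hairpin 2 array stood more than 2 log2 units above every scrambled array.

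Several of the 15 largest rises were of proteins on the cell surface or in the matrix. Cdh13, T-cadherin, a lipid-anchored receptor that binds adiponectin, read 6.77, 6.74 and 6.74 against 9.08, 9.29 and 9.04. That is a rise of 2.39 (adjusted p = 8.60e-12), and the other Cdh13 probe set that could be tested rose by 1.96. Vcan, the large chondroitin sulfate proteoglycan versican, read 8.00, 7.91 and 7.88 against 10.23, 10.14 and 10.48, and rose by 2.35 (adjusted p = 1.78e-11). Dpt, the collagen-binding protein dermatopontin, rose by 2.29, Pdpn, the mucin-like membrane protein podoplanin, by 2.27, and Mgp, matrix Gla protein, which inhibits calcification, by 2.06.

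The other 7 of the 15 were mixed in function. Serpinb9b, an intracellular protease inhibitor, rose by 2.39, Sertad4 by 2.32 and Fam171b by 2.24. Trib2, a pseudokinase known for promoting the breakdown of C/EBPα, read 6.88, 7.30 and 7.16 against 9.43, 9.18 and 9.39. Trib2 so rose by 2.22 (adjusted p = 3.14e-10). Rnase4, a secreted ribonuclease, and the scaffold Ahnak2 each rose by 2.21, and Tmem176a by 2.20.

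The deepest falls outside the families left out by symbol were larger than any rise. Mpeg1, a perforin-like protein best known in macrophages, read 11.87, 11.89 and 11.91 with the scrambled hairpin and 7.06, 7.30 and 7.09 with hairpin 2, a 26.7-fold fall (log2 difference -4.74, SE 0.104, limma adjusted p = 1.56e-14). Melk, maternal embryonic leucine zipper kinase, read 9.95, 9.99 and 9.97 against 5.62, 5.25 and 5.75 (adjusted p = 5.38e-14). Its hairpin 2 mean lay below the 5.72 that a gene had to reach to be tested, and against that limit the fall was at least 19.0-fold. For both genes the 3 scrambled arrays lay close together, and both have a single probe set here.

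Apod, the lipid-carrying protein apolipoprotein D, read between 11.81 and 12.12 on the scrambled arrays, against 7.90, 7.97 and 7.87. This 16.7-fold fall (-4.06, adjusted p = 1.09e-12) started from one of the brighter levels. Colec11, a collectin that binds microbial sugars and starts the lectin pathway of complement, read 8.93, 8.70 and 8.63 against 5.10, 5.07 and 5.29, and so reached the floor (-3.60, adjusted p = 4.81e-13). Pla1a, a phospholipase with a preference for phosphatidylserine, read 9.10, 9.20 and 9.36 against 5.87, 5.75 and 5.78 (-3.42, adjusted p = 6.65e-13). Colec11, too, ended below the limit, and against it the fall was at least 8.15-fold. Pla1a ended just above it.

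Defence proteins were also among the 15. Cfb, complement factor B of the alternative pathway, read 12.53, 12.50 and 12.61 against 10.01, 10.06 and 10.18, and fell by 2.46 (adjusted p = 1.15e-12). Defb42, a beta-defensin, fell by 2.40 to 5.70, a level below the limit, against which the fall was at least 5.18-fold. Samhd1, which breaks down nucleotides and restricts retroviruses, read 11.19, 10.99 and 11.16 against 9.03, 9.14 and 9.29, a fall of 1.96, and its 4 other tested probe sets fell by 0.66 to 0.92. Rnf213, a giant ubiquitin ligase, fell by 2.29 on its bright probe set (adjusted p = 4.68e-09), while a dim one at 6.34 and 6.36 did not pass the test.

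The remaining falls were of mixed function. Plac8, a small cysteine-rich protein, fell by 2.21, Dtd1, which clears D-amino acids from transfer RNA, by 2.01, Tent5a, a poly(A) polymerase, by 1.93, and Ttll11, which adds glutamates to tubulin, by 1.84, with another Ttll11 probe set at -0.18 (not called). Hpx, the heme-scavenging plasma protein hemopexin, read 8.91, 8.96 and 9.09 against 7.17, 7.19 and 7.16, a fall of 1.81. Laptm5, a lysosomal protein of blood cells, was the least even of the 15: it read 10.78, 10.86 and 9.81 against 9.23, 8.05 and 8.69 (-1.82, adjusted p = 6.37e-05). Another Laptm5 probe set, at 5.81 and 5.76, did not pass the test, and 3 more were too dim to test.

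Many genes have several probe sets, and the brightest one, used here, often gave a larger change than the others. Of the 145 genes named by rule other than Ebf1, 72 had another probe set bright enough to test. In 61 of these all the others had the same sign, in 54 at least 1 other was called the same way, and in 0 was another called the opposite way. In the remaining 18 no other probe set passed the test: Amot, Atg7, Bdnf, Bmf, Eif4g3, Hbegf, Hhat, Id2, Laptm5, Notch1, Rasal2, Rgs12, Rnf213, Stmn1, Sufu, Trp53inp1, Ttll11 and Tubb6. With the mean of all probe sets, dim ones included, the change was smaller by over 1.5 times in 50 of 143 named genes. Vcan was then at 0.69, St6gal1 at 1.51, Apod at -2.07 and Laptm5 at -0.34, all still called.

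**Figure D2:**
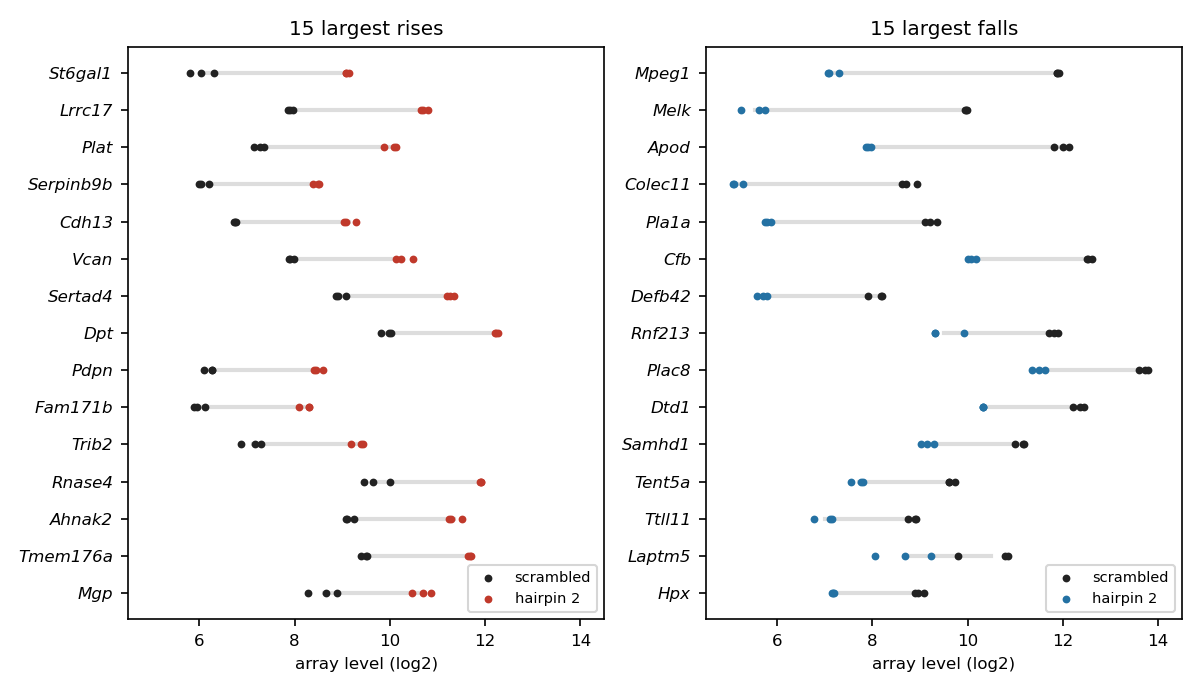
Array levels (log2, horizontal axis) of the 15 genes with the largest rises (left) and the 15 with the largest falls (right) outside the interferon families, with gene models without a proper name left out; black points are the 3 scrambled arrays, coloured points the 3 hairpin 2 arrays, and grey bars join the group means. Only genes whose groups do not overlap could enter the 30. The group means differ by 4.74 log2 units for Mpeg1 and by 1.81 for Hpx.

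The promoters of the changed genes were searched for the palindrome that Ebf1 binds and, because so many interferon genes fell, for the core of the interferon response element. RefSeq windows of 300 bases (assembly GRCm38.p6, 250 before the start of transcription and 50 after) were found for 10231 tested genes. The Ebf1 core was spelled TCCCNNGGGA and the interferon core GAAANNGAAA, both searched on both strands. At their ends they can share at most the 2 letters GA, or TC on the other strand, and 10 of all windows held both. The Ebf1 core was in 0.904% of all 32851 windows. A gene was counted if any of its windows held the core, so shares of genes are not set against shares of windows. Of the tested genes with a window 1.31% held the Ebf1 core: 1.48% of those that rose, 1.18% of those that fell and 1.28% of those that did neither. Among the 137 genes with a window that fell by at least 1 unit, 0 held it. The interferon core was in 3.44% of all windows and in 3.52% of the tested genes with a window. By direction it was in 3.42% of genes that rose, 5.88% of genes that fell and 3.07% of genes that did neither. It was in 42 of the 137 that fell by at least 1 unit (30.7%) and in 26 of the 50 that fell by at least 2 (52.0%). The interferon and related families left out by symbol held 89 of the 180 falls of at least 1 unit and 57 of the 71 of at least 2. Since the core was picked because such genes fell, these high shares were favoured by the choice of core. Among the 15 largest falls outside those families, 12 genes had a window and 2 held the interferon core. A match of letters is not a binding site, and Ebf1 can bind far from a start.

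Of the 115 genes named by the rule that have a window, 0 held the Ebf1 core and 6 held the interferon core: Colec11, Akr1c14, Dtd1, Lgals9, Ebf1 itself and Bdnf. Of these, 4 fell and 2, Akr1c14 and Bdnf, rose. The 250 bases before the start are shown for the 4 with the largest changes, so that the place and form of the core can be seen; they run 5′ to 3′ along the gene, with the core in capitals, in its forward form or as its reverse complement. They lie at chr12:28623331-28623580 on the minus strand for Colec11, chr13:4059341-4059590 on the plus strand for Akr1c14, chr2:144599703-144599952 on the plus strand for Dtd1 and chr11:78984925-78985174 on the minus strand for Lgals9.
Colec11: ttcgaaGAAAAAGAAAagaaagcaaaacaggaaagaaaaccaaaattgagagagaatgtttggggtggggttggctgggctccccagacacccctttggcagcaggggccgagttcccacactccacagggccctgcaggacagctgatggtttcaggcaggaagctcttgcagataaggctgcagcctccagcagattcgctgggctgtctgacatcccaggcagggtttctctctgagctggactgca
Akr1c14: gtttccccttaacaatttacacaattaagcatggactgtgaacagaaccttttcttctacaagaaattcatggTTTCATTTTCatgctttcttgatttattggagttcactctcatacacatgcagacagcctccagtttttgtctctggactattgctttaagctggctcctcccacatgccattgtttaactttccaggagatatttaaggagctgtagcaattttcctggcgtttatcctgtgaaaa
Dtd1: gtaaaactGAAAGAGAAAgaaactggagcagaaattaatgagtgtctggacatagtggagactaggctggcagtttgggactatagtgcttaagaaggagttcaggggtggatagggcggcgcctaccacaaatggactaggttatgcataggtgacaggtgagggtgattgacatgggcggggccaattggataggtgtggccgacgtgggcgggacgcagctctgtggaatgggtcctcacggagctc
Lgals9: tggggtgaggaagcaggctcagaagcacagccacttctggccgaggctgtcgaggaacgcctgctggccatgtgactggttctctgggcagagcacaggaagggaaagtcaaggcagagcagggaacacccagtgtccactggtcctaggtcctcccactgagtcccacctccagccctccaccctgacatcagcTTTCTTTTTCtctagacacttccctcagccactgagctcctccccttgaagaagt
The core starts 244 bases before the start in Colec11, 177 in Akr1c14, 242 in Dtd1 and 55 in Lgals9. Lgals9 holds another 16 bases after its start. The core of Akr1c14, a gene that rose, and that of Lgals9 are in the reverse form, and those of Colec11 and Dtd1 in the forward form.

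The genes were next read by class. Over 30 classes, 1669 genes were on the array, of which 1280 were tested and 389 were too dim. The class counts are set beside the 21.5% higher and 13.3% lower over all tested genes, and beside the median log2 difference of all tested genes, 0.0238. Of the 1280, 354 were higher (27.7%) and 139 lower (10.9%). Over the alternatives the number lower moved by over 1.5 times in 19 classes and the number higher in 3. In 27 classes more members were higher than lower, in 2 the reverse held (the Notch pathway and the Bcl2 and caspase genes), and in the B lymphocyte genes no member changed. Only 16 of the 1280 had a scrambled mean below the limit and were tested through brighter knockdown arrays, and 5 of these were called higher: Srgap1, Ptger4, Pla2g7, Gja1 and Akr1c14.

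**Figure D3:**
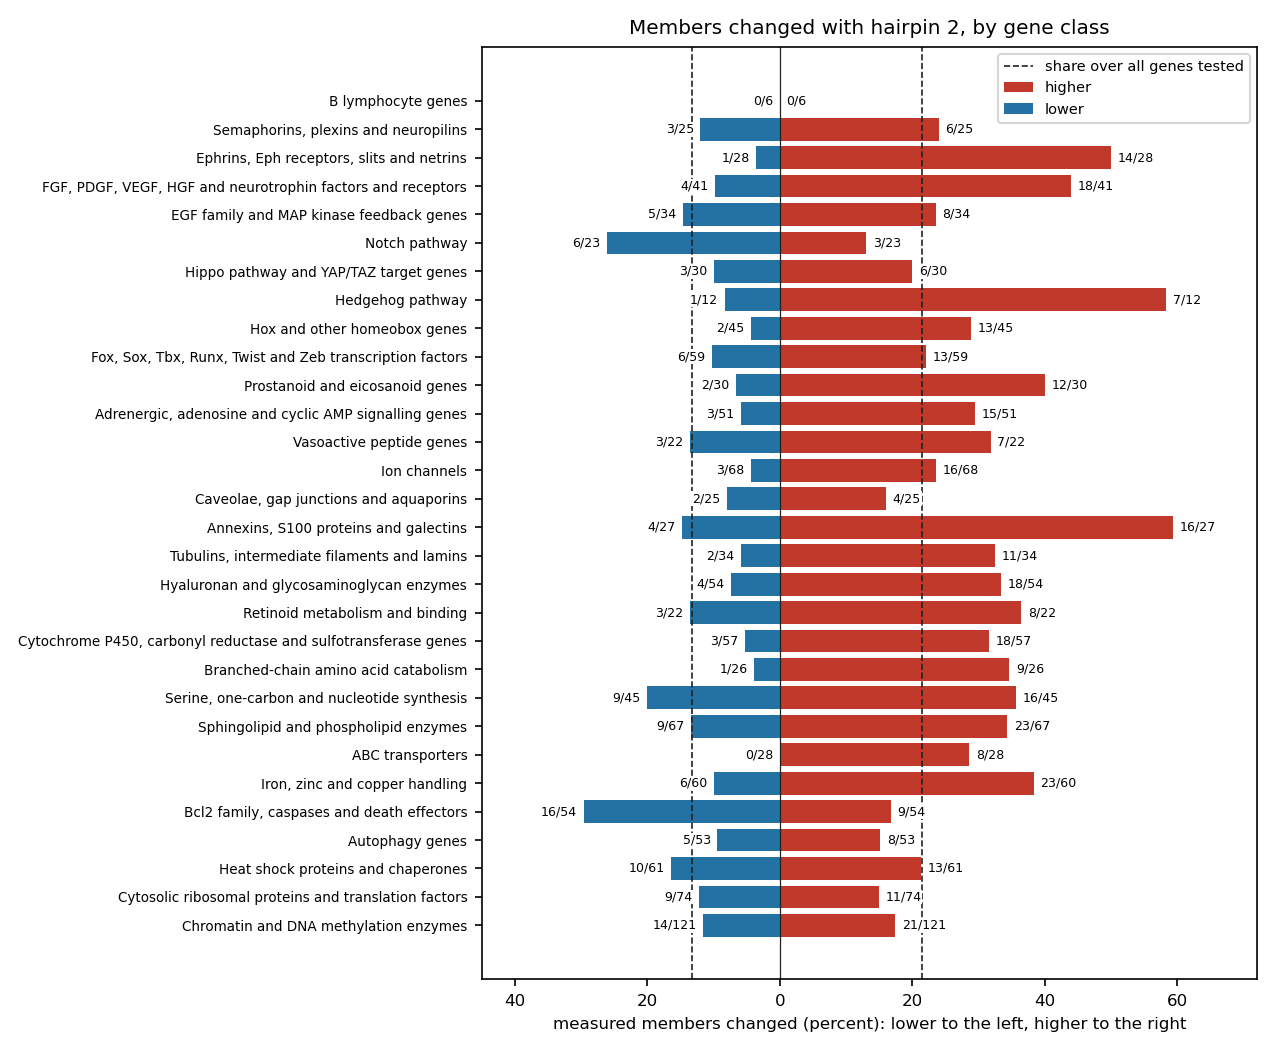
Share of the tested members of each of 30 gene classes that were higher (red, to the right) or lower (blue, to the left) with hairpin 2, in percent, with the numbers beside the bars; dashed lines mark 21.5% and 13.3%, the shares over all tested genes. Annexins, S100 proteins and galectins (59.3% higher), the Hedgehog pathway (58.3%) and the ephrin group (14 of 28) reach farthest to the right, and the Bcl2 and caspase genes (29.6% lower) farthest to the left.

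Genes for contact guidance rose in number. Ephrins and Eph receptors signal in both directions where cells touch, and slits and netrins are secreted cues read by Robo and Unc5 receptors; of 28 tested members 14 were higher and 1 lower, with a median difference of 0.30. Over the alternatives 11 to 15 were higher, and the median was 0.07 with no filter on dim genes, 0.19 with the mean of all probe sets and 0.39 with a stricter filter. Efnb2, a membrane-bound ephrin, read 6.51, 6.51 and 6.61 against 7.80, 7.33 and 7.61 and rose by 1.04 (limma adjusted p = 1.74e-06). Ephb3, a receptor of that ephrin class, read 9.49, 9.28 and 9.40 against 10.27, 10.37 and 10.26 (0.91, adjusted p = 1.98e-06). Ligands and receptors thus both rose, and so did Efna4 by 0.66 and Ephb4 by 0.65. Dpysl3, a cytoskeletal partner of guidance receptors, rose most, from 6.16, 6.22 and 6.43 to 7.67, 7.45 and 7.56 (1.29), while its relative Dpysl2 fell by 0.30.

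Semaphorins, which act through plexins and neuropilins, were closer to the background: 6 of 25 were higher and 3 lower, with a median of 0.021. Sema3g, a secreted semaphorin, was the strongest, at 6.26, 6.52 and 6.59 against 8.06, 8.23 and 8.59 (1.83, adjusted p = 1.06e-08). The transmembrane Sema6d read 11.07, 11.04 and 11.06 against 12.43, 12.69 and 12.49 (1.48, adjusted p = 6.27e-11). Sema5a rose by 0.92, the receptor Plxnb2 by 0.65 and the co-receptor Nrp2 by 0.38, whereas Plxna1, Plxnd1 and Sema4b fell by 0.27, 0.33 and 0.33.

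Growth factors and their receptor kinases were higher in 18 of 41 and lower in 4. On the ligand side, Bdnf, a neurotrophin, read 6.88, 6.78 and 6.82 against 8.02, 7.90 and 8.11 (1.18, adjusted p = 1.08e-06), and Angpt2, an antagonist of the Tie2 receptor, read 7.36, 7.24 and 7.28 against 8.34, 8.38 and 8.32 (1.05). Kitl, the ligand of Kit, rose by 1.03, Pdgfc by 0.83, Gas6, the ligand of Mertk, by 0.69 and Fgf10 by 0.51. On the receptor side, Pdgfra, which marks fat cell precursors, read 10.71, 10.24 and 10.45 against 11.59, 11.62 and 11.75 (1.18, adjusted p = 9.74e-08). Fgfr2 rose by 0.97, Mertk by 0.70, Fgfr1 by 0.63 and Pdgfrb by 0.58. Pdgfrl, a secreted relative of the PDGF receptors, rose by 1.50. The 4 that fell were Fgf1 by 0.44, Vegfa by 0.34, Csf1 by 0.21 and Fgfrl1 by 0.20; the number that fell was 1 to 5 over the alternatives tried.

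In the EGF family and the feedback genes of MAP kinase signalling, 8 of 34 were higher and 5 lower, with a median of 0.020. The ligands moved apart on the probe sets used. Btc, betacellulin, read 8.55, 8.51 and 8.44 against 7.11, 7.18 and 7.40 and fell by 1.27 (adjusted p = 3.31e-08), whereas Hbegf read 6.79, 6.62 and 6.92 against 7.62 on each array and rose by 0.84 (adjusted p = 9.69e-06). Another Hbegf probe set, with a scrambled mean of 6.84, was at 0.10 and was not called (limma adjusted p = 0.514). Lrig3, a modulator of receptor kinases, rose by 0.91 and the Ras inhibitor Rasal2 by 0.64. Among the feedback genes Spred2 and Spry1 rose by 0.53 and 0.32, and the phosphatase genes Dusp10, Dusp1 and Dusp16 fell by 0.25, 0.31 and 0.35.

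The Hedgehog class, in which ligands release Smo from Ptch1 and so activate Gli factors, had 7 of 12 members higher and 1 lower (median 0.30, and 0.17 with the mean of all probe sets). The transcription factor Gli2 read 10.51, 10.37 and 10.38 against 11.48, 11.27 and 11.51 and rose by 1.00 (adjusted p = 5.91e-08). Gas1, a co-receptor, read 12.69, 12.68 and 12.72 against 13.49, 13.33 and 13.49 (0.74), and Ptch1, Smo and Cdon rose by 0.41, 0.33 and 0.30. Hhat, which attaches palmitate to the ligands, rose by 0.47. The inhibitor Sufu read 9.14, 8.94 and 9.10 against 8.47, 8.49 and 8.42 (-0.60, adjusted p = 7.03e-05), but its other 2 tested probe sets stood at 0.21 and 0.00, and with the mean of all 3 Sufu was at -0.13 (adjusted p = 0.205). Gli1 and Gli3 were too dim to test.

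Notch, a receptor family activated by contact with ligands on neighbouring cells, had 3 of 23 members higher and 6 lower, a median of -0.024. Notch1 read 9.16, 9.03 and 9.12 against 8.69, 8.68 and 8.61 (-0.44, adjusted p = 0.000959) and Notch2 fell by 0.36. Lfng, a glycosyltransferase that tunes ligand choice, and Dtx2, a ubiquitin ligase of the pathway, both fell by 0.52. Of the nuclear proteins, the Notch target Hes1 rose by 0.31 and Hes6, which counteracts Hes1, by 0.55, and Hey1 was at -0.05 (adjusted p = 0.791).

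In the Hippo class, where kinases keep the co-activators Yap1 and Wwtr1 out of the nucleus, 6 of 30 members were higher and 3 lower, close to the background, and the median was -0.015. Yap1 and Wwtr1 themselves were at -0.03 and -0.01, with adjusted p of 0.846 and 0.975. Tead2, a DNA-binding partner of both, read 7.73, 7.81 and 7.76 against 8.91, 9.10 and 8.84 (1.18, adjusted p = 6.24e-08). Ccn1, a secreted target of the pathway, read 8.59, 8.41 and 8.73 against 9.59, 9.61 and 9.63 (1.04), while Ankrd1, another target, fell by 0.55. The large cadherins Fat4 and Fat1 rose by 1.08 and 0.80 and the scaffold Amot by 1.01 (another Amot probe set was at -0.03, not called), and Amotl2 fell by 0.45. The number that fell was 2 to 6 over the alternatives, 6 with quantile normalization and with array weights.

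**Figure D4:**
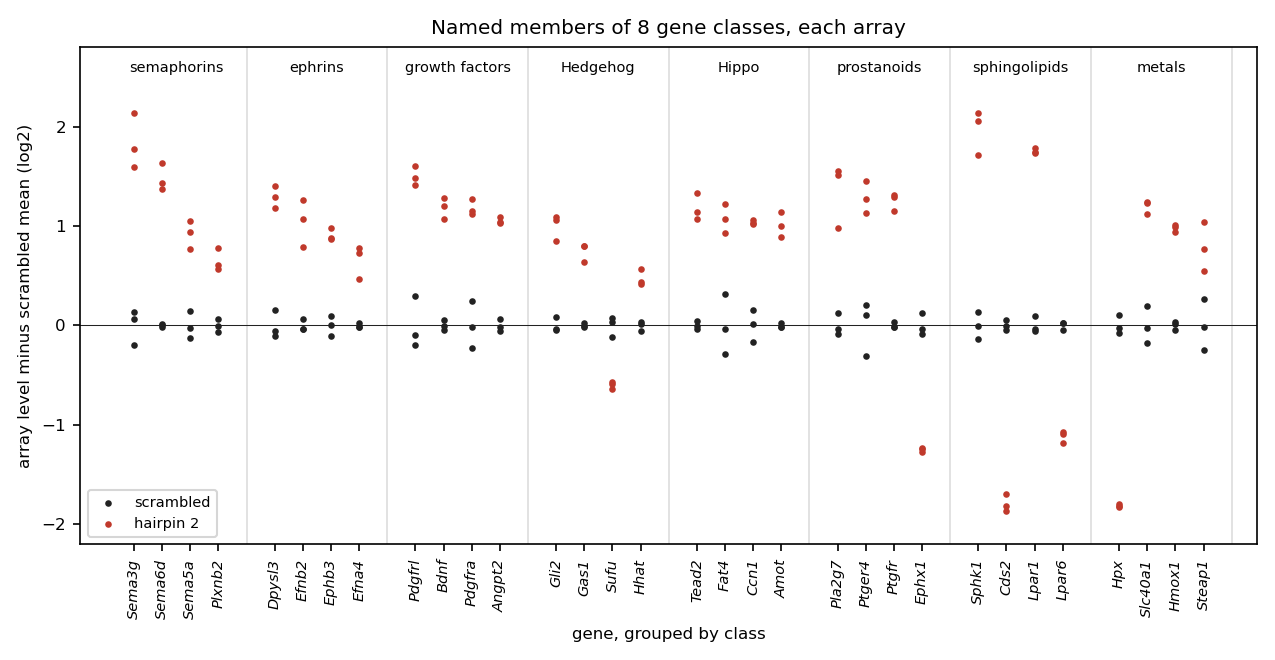
Level of each array minus the mean of the 3 scrambled arrays (log2, vertical axis) for the named members of 8 gene classes along the horizontal axis; black points are scrambled and red points hairpin 2 arrays. Only genes whose groups do not overlap could be named. Sphk1 at 1.97 is the highest, and Hpx at -1.81 and Cds2 at -1.79 are the lowest.

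Transcription factors changed about as often as other genes. Of 45 Hox and other homeobox genes 13 were higher and 2 lower (median 0.092, and 0.27 with a stricter filter). Most rises were small: Hoxa7 read 9.56, 9.66 and 9.82 against 10.15, 10.29 and 10.26 (0.55) and Hoxd8 rose by 0.54, while Hoxa4 fell by 0.39. Pbx3, a partner of Hox proteins on DNA, stood apart at 7.61, 7.59 and 7.63 against 8.49, 8.90 and 8.79 (1.12, adjusted p = 5.05e-07). The mesenchymal homeobox genes Prrx2 and Prrx1 rose by 0.50 and 0.39, and Zfhx3 by 0.55.

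Among 59 Fox, Sox, Tbx, Runx, Twist and Zeb factors 13 were higher and 6 lower. Snai2, a repressor known for its part in mesenchymal transitions, read 10.76, 10.59 and 10.62 against 11.54, 11.74 and 11.67 (0.99, adjusted p = 9.85e-08), and Snai1 rose by 0.52. Sox4 read 12.42, 12.56 and 12.33 against 13.22, 13.18 and 13.29 (0.79). Of the Id proteins, which block basic helix-loop-helix factors, Id2 rose by 0.78 while Id1 and Id3 fell by 0.32 and 0.40. The Zeb pair also split, with Zeb1 up by 0.40 and Zeb2 down by 0.69; of the 4 other Zeb2 probe sets, those at -0.38 and -0.62 lay below 0 and those at 0.08 and 0.15 above it, and with the mean of all 5 Zeb2 was at -0.29 (adjusted p = 0.0571). Foxo1, which insulin signalling inhibits, fell by 0.36.

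Chromatin and DNA methylation enzymes were called at lower shares than the rises of all genes, with 21 higher and 14 lower of 121. Chd3, a remodeller of the NuRD complex, read 8.27, 8.28 and 8.18 against 9.22, 9.42 and 9.26 (1.06, adjusted p = 2.84e-07). Hdac7, a class of deacetylase that acts as a co-repressor, rose by 0.80, and Smarcc2, a core subunit of SWI/SNF complexes, by 0.69. Subunits of a Polycomb repressive complex differed in sign: Ezh2, the methyltransferase, read 9.30, 9.50 and 9.34 against 10.02, 10.11 and 10.07 (0.69, adjusted p = 1.01e-05), while Eed and Suz12 fell by 0.47 and 0.24. Sirt1 fell by 0.58, Sirt2 rose by 0.49 and the maintenance methyltransferase Dnmt1 rose by 0.41.

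Prostanoids are lipid messengers made from arachidonic acid and read by G-protein-coupled receptors, some of which restrain fat cell formation. Of 30 tested members 12 were higher and 2 lower (median 0.14). Over the alternatives 10 to 12 were higher and 1 to 4 lower, and the median was 0.06 to 0.33. Among receptors, Ptgfr, for prostaglandin F, read 9.86, 9.92 and 9.86 against 11.17, 11.03 and 11.19 (1.25, adjusted p = 2.19e-09), and Ptger4, for prostaglandin E, read 5.49, 4.98 and 5.40 against 6.42, 6.56 and 6.74 (1.28, adjusted p = 5.28e-07). Ptger4 was thus below the limit with the scrambled hairpin, and the rise against the limit was at least 1.80-fold; for Pla2g7, below it too, at least 2.10-fold. Among enzymes, Ptgis, prostacyclin synthase, rose by 1.11, Ptgr1, a reductase that inactivates prostanoids and leukotrienes, by 1.23, Ptges by 0.54 and Pla2g7, which degrades platelet-activating factor, by 1.35. Ephx1, microsomal epoxide hydrolase, went the other way, from 11.91, 11.86 and 12.07 to 10.67, 10.71 and 10.72 (-1.25, adjusted p = 2.19e-09). Ptgs2 was too dim to test.

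In cyclic AMP signalling, the pathway through which catecholamines drive lipolysis, 15 of 51 were higher and 3 lower (median 0.054). Pde4b, a phosphodiesterase that degrades cyclic AMP, read 7.05, 7.21 and 7.15 against 7.87, 8.02 and 8.01 (0.83, adjusted p = 4.28e-06), and Pde7a and Pde1b rose by 0.80 and 0.66. Rgs12 and Rgs10, which speed up the shut-off of G proteins, mainly inhibitory ones, rose by 0.80 and 0.75 (other Rgs12 probe sets, at -0.08 and 0.15, did not pass the test), and the inhibitory G proteins Gnai2 and Gnai3 by 0.59 and 0.50. The adenylate cyclases Adcy6 and Adcy9 fell by 0.22 and 0.28, and Adcy5 was at 0.01 (adjusted p = 0.951). The number that fell was 1 to 6 over the alternatives.

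Peptides that act on vessels were higher in 7 of 22 and lower in 3. Agt, the precursor of angiotensin, read 12.29, 12.44 and 12.48 against 13.43, 13.51 and 13.43 (1.05, adjusted p = 9.38e-10), and Apln, apelin, rose by 0.77. Adm, adrenomedullin, read 9.59, 9.39 and 9.64 against 8.35, 8.16 and 8.42 (-1.23, adjusted p = 1.23e-07), and Calcrl, the receptor subunit through which it signals, read 9.43, 9.62 and 9.25 against 8.83, 8.64 and 8.94 (-0.63, adjusted p = 0.000288). Npr3, which clears natriuretic peptides, rose by 0.56 and the signalling receptor Npr2 by 0.48.

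Ion channels were higher in 16 of 68 and lower in 3. The calcium channel subunits Cacna2d1 and Cacna1g rose, Cacna2d1 from 8.63, 8.64 and 8.58 to between 9.84 and 10.03 (1.34, adjusted p = 1.27e-08) and Cacna1g by 0.92. Trpv1, the heat and capsaicin channel, read 8.49, 8.60 and 8.60 against 7.51, 7.41 and 7.61 (-1.05, adjusted p = 1.02e-07). The chloride channel relatives Clic1 and Clic4 differed in sign, at 0.93 and -0.71. The number that fell was 2 to 7 over the alternatives.

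Among caveolae, gap junction and aquaporin genes, 4 of 25 were higher and 2 lower, below the background for rises. Over the alternatives 2 to 5 were higher and 1 to 5 lower, with 1 lower in each fit that left out a hairpin 2 array or scrambled replicate 1 or 2. The main proteins of fat cell caveolae did not pass the test, with Cav1 at 0.03 (adjusted p = 0.578) and Cavin1 at 0.02 (adjusted p = 0.900), while Ehd2, which holds caveolae at the membrane, read 11.59, 11.66 and 11.65 against 12.20, 12.46 and 12.24 (0.67). Ehd3 rose by 0.62. Gja1, the gap junction protein connexin 43, rose by 1.02 on a probe set whose scrambled mean was below the limit (5.15 to 6.17, at least 1.36-fold), and its 5 other probe sets were too dim to test. Aqp1 rose by 0.42 with an adjusted p of 0.0235, which became 0.116 without the first scrambled array, 0.126 without the first hairpin 2 array and 0.0602 without the third. Aqp7, the glycerol channel of fat cells, fell by 0.28.

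Annexins, S100 proteins and galectins had the highest share of rises, 16 of 27, with 4 lower and a median of 0.22. The calcium-binding S100a4, known from motile and fibroblastic cells, read 11.51, 11.22 and 11.49 against 12.36, 12.32 and 12.38 (0.94, adjusted p = 7.62e-08), and S100b rose by 0.77. Anxa3 read 8.57, 8.49 and 8.67 against 9.53, 9.46 and 9.46 (0.91), and Anxa5, Anxa4, Anxa1 and Anxa2 rose by 0.48, 0.40, 0.30 and 0.16. The galectins split. Lgals3, Lgals2 and Lgals1 rose by 0.34, 0.41 and 0.15. Lgals9, a soluble galectin that acts on immune cells, read 11.81, 12.09 and 12.16 against 10.67, 10.77 and 10.79 (-1.28, adjusted p = 3.46e-07). Lgals3bp, a secreted galectin partner, read 13.56, 13.68 and 13.65 against 12.06, 12.19 and 12.20 (-1.48, adjusted p = 1.65e-11), and the adipocyte galectin Lgals12 fell by 0.47.

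Of 34 tubulins, intermediate filament proteins and lamins, 11 were higher and 2 lower. Stmn1, which takes microtubules apart, read 7.30, 7.17 and 7.33 against 8.47, 8.47 and 8.49 (1.21, adjusted p = 1.73e-07). Tubb6 rose by 0.85, the nuclear lamin Lmna by 0.69, desmin (Des) by 0.62 and vimentin (Vim) by 0.25. Krt18, a keratin of simple epithelia, read 6.96, 6.63 and 6.98 against 5.40, 5.46 and 5.49 (-1.41, adjusted p = 3.58e-07) and so ended below the limit, against which the fall was at least 2.19-fold, whereas its usual partner Krt8 was at 0.01 (adjusted p = 0.963).

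Enzymes and core proteins of hyaluronan and glycosaminoglycans were higher in 18 of 54 and lower in 4. The receptor and the synthase of hyaluronan went opposite ways. Cd44, the receptor, read 9.28, 9.25 and 9.06 against 10.82, 10.82 and 10.76 (1.60, adjusted p = 7.80e-10), and its other 2 tested probe sets rose by 1.53 and 1.72. Has2, a synthase, read 9.21, 8.93 and 8.81 against 7.85, 7.58 and 8.08 (-1.15, adjusted p = 8.53e-06). Cell surface core proteins rose, namely Gpc6 by 1.05, Sdc4 by 0.86, Gpc1 by 0.83, Sdc2 by 0.80 and Sdc1 by 0.67, with Gpc4 down by 0.36. Uxs1, which makes the xylose donor that starts every chain on a core protein, read 10.03, 9.99 and 10.09 against 8.79, 8.68 and 9.09 (-1.18, adjusted p = 5.40e-07). The chondroitin enzymes Chst11, Chst12 and Chsy1 rose by 0.73, 0.57 and 0.57.

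Retinoid genes, which make and clear retinoic acid, a regulator of fat cell differentiation, were higher in 8 of 22 and lower in 3. Both steps from retinol to retinoic acid had members that rose: Rdh10, which oxidises retinol to retinal, read 8.99, 8.88 and 8.87 against 9.98, 9.88 and 9.87 (1.00, adjusted p = 1.38e-07), and Aldh1a1, which oxidises retinal, read 9.53, 9.44 and 9.64 against 10.57, 10.57 and 10.60 (1.05, adjusted p = 1.03e-07). Bco1, which splits beta-carotene, rose by 0.78 and Adh7 by 0.71. Dhrs3, which turns retinal back to retinol, and Cyp26b1, which degrades retinoic acid, fell by 0.51 and 0.39.

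Among 57 cytochrome P450, carbonyl reductase and sulfotransferase genes, 18 were higher and 3 lower. Akr1c14, a steroid reductase whose promoter is shown above, read 5.76, 5.62 and 5.56 against 7.47, 7.39 and 8.19 (2.04, adjusted p = 5.91e-08), at least 3.89-fold above the limit that its scrambled mean did not reach. Hsd11b1, which regenerates active glucocorticoid in fat, read 12.47, 12.39 and 12.55 against 13.35, 13.39 and 13.35 (0.89, adjusted p = 3.43e-09). Cbr2, a carbonyl reductase abundant in fat, read 12.47, 12.63 and 12.71 against 13.73, 13.83 and 13.74 (1.16). Xdh, xanthine oxidoreductase, which makes uric acid, read 12.81, 12.88 and 12.91 against 11.73, 11.96 and 11.75 (-1.05, adjusted p = 4.50e-08). Nqo1 rose by 0.67 and Nqo2 fell by 0.39.

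Breakdown of branched-chain amino acids, a pathway that runs high in mature fat cells, had 9 of 26 members higher and 1 lower. Pccb, a subunit of propionyl-CoA carboxylase, read 10.28, 10.36 and 10.44 against 11.05, 11.19 and 11.06 (0.74, adjusted p = 2.49e-06), and Mccc2 and Mmab rose by 0.46 and 0.41. Bcat1, the cytosolic transaminase, rose from 6.09, 6.72 and 6.06 to 7.30, 7.16 and 7.17 (0.92), whereas the mitochondrial Bcat2 was at -0.23 (adjusted p = 0.139). The dehydrogenase complex was uneven, with Bckdhb up by 0.25, Dbt down by 0.39 and Bckdha at -0.05 (adjusted p = 0.666).

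Serine, folate-cycle and nucleotide synthesis had many changes in both directions, 16 of 45 higher and 9 lower (4 to 10 lower over the alternatives). Got2, the mitochondrial aspartate transaminase, read 11.78, 11.73 and 11.84 against 12.77, 12.78 and 12.75 (0.98, adjusted p = 4.96e-10). Gpt2, the mitochondrial alanine transaminase, read 9.47, 9.49 and 9.35 against 10.28, 10.33 and 10.22 (0.84, adjusted p = 8.30e-07), and its 3 other probe sets rose by 0.90 to 1.08. Shmt1 and Mthfd1l, folate enzymes, rose by 0.74 and 0.70. Asns, asparagine synthetase, fell by 0.55, and Phgdh, the entry to serine synthesis, was at -0.13 (adjusted p = 0.0663).

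Sphingolipid and phospholipid genes included some of the largest changes of any class, with 23 of 67 higher and 9 lower. Sphk1, which makes sphingosine-1-phosphate, read 5.97, 5.70 and 5.83 against 7.88, 7.55 and 7.97 (1.97, adjusted p = 1.34e-09). Of the receptors for the related lysophosphatidic acid, Lpar1 read 8.02, 7.89 and 7.87 against 9.71, 9.67 and 9.66 (1.76, adjusted p = 1.06e-10), with its other probe sets at 2.21 and 1.16, whereas Lpar6 read 11.67, 11.61 and 11.68 against 10.56, 10.47 and 10.58 (-1.11, adjusted p = 3.22e-09) and Lpar4 fell by 0.80. The ceramide genes Cers6 and Acer3 rose by 0.93 and 0.97. Cds2, which makes CDP-diacylglycerol for phosphoinositides, read 11.16, 11.27 and 11.20 against 9.52, 9.34 and 9.40 (-1.79, adjusted p = 5.83e-10). Its 5 other probe sets lay at -1.85, -1.50, -0.71, -0.13 and -0.13, so the size of its fall differed with the probe set, for a reason that was not tested.

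ABC transporters were higher in 8 of 28 and lower in 0. Abcg2, an exporter of drugs, urate and porphyrins that marks many stem cells, read 10.05, 9.97 and 10.03 against 11.61, 11.57 and 11.67 (1.60, adjusted p = 3.22e-11). The next, Abcc3, Abca5 and Abca2, rose by 0.61, 0.57 and 0.45. With the mean of all probe sets of a gene, and with array weights, 1 member was called lower.

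Genes that handle iron, zinc and copper were higher in 23 of 60 and lower in 6 (median 0.14). Genes of iron export and of heme breakdown rose. Slc40a1, ferroportin, the iron exporter, read 9.50, 9.12 and 9.28 against 10.54, 10.42 and 10.54 (1.20, adjusted p = 7.12e-08), and its other probe set rose by 1.22. Hmox1, heme oxygenase, read 10.43, 10.51 and 10.49 against 11.46, 11.41 and 11.49 (0.98, adjusted p = 6.01e-08), and Blvra and Blvrb, the next enzymes of heme breakdown, rose by 0.56 and 0.47. The transferrin receptor Tfrc and ferritin heavy chain Fth1 fell by 0.25 and 0.09, and the heme scavenger Hpx by 1.81, as given above. Metallothioneins Mt1 and Mt2, which buffer zinc and copper, rose by 0.62 and 0.39, and the copper importer Slc31a1 and exporter Atp7a by 0.73 and 0.62. Steap1 rose by 0.78.

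Cell death genes leaned down. Of 54 Bcl2 family, caspase and death effector genes, 9 were higher and 16 lower (16.7% and 29.6%, median -0.076). The falls included both protectors and effectors. Bcl2 itself fell by 0.73 and Bcl2l2 by 0.71, both of which block mitochondrial death, and the inhibitors Birc2, Birc6 and Birc3 by 0.57, 0.47 and 0.34. Mlkl, the pore former of necroptosis, read 11.76 on its lowest scrambled array, against 10.80, 10.89 and 10.89 with hairpin 2 (-1.02, adjusted p = 3.32e-08). The inflammatory caspases fell, with Casp1 at 8.47, 8.48 and 8.45 against 7.42, 7.25 and 7.77 (-0.99, adjusted p = 6.25e-06), Casp12 by 0.96 and Casp4 by 0.67, and Aifm2, which protects from ferroptosis, fell by 0.97. Bmf, a killer protein of the Bcl2 family, read 6.40, 6.30 and 6.21 against 7.48, 7.36 and 7.46 and rose by 1.13 (adjusted p = 3.65e-08), while another Bmf probe set was at -0.08 (not called).

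Housekeeping classes stayed near or below the background. Autophagy genes had 8 of 53 higher and 5 lower: Tecpr1 rose by 0.93, Wipi1 by 0.67 and Atg7, the activating enzyme for conjugation of Atg8 proteins, from 9.38, 9.43 and 9.49 to 10.14, 10.24 and 10.20 (0.76), and Trp53inp1 fell by 0.75. Chaperones had 13 of 61 higher and 10 lower. Hspa9, the mitochondrial Hsp70, read 13.40, 13.48 and 13.41 against 12.69, 12.66 and 12.69 (-0.75, adjusted p = 9.67e-10), the small chaperone Cryab rose by 0.73, the secreted Clu by 0.58 and Hspa12b by 0.53. Ribosomal proteins and translation factors had 11 of 74 higher and 9 lower, all by less than 0.5 on the brightest probe sets. Eef1b2 rose by 0.43, Rps25 fell by 0.43 and Eif4ebp1, which holds back cap-dependent translation, fell by 0.38. Other Eif4ebp1 probe sets lay at -0.35 and -0.98, the latter from a scrambled mean of 10.05. The number of rises in this class was 4 without a mean-variance trend, 6 without the first scrambled array, and 7 without the second scrambled array, without the second hairpin 2 array or with the mean of all probe sets. Eif4g3 rose by 0.34 on its brightest probe set but was at 0.05 with the mean of all of them (adjusted p = 0.634).

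The B lymphocyte genes for which Ebf1 is best known gave no call. Of 22 on the array 16 were too dim to test, and of the 6 tested (Cd79a, Igll1, Cd22, Cr2, Ikzf1 and Ikzf3) 0 were higher and 0 lower, with differences of -0.23 to -0.07. The nearest to the threshold was Igll1, part of the surrogate light chain, at -0.23 (adjusted p = 0.0903). Bank1, a B cell scaffold, was dropped by the filter because its mean over the 9 arrays was low, yet it read 7.09, 6.74 and 6.69 with the scrambled hairpin and 5.17, 4.77 and 4.85 with hairpin 2. It was singled out after its values were seen. With no filter, and with the mean of all probe sets, 1 member of the class was called lower. The mature B cell genes Ms4a1 and Pax5 stood at 5.11 and 5.68 on the scrambled arrays, below the limit.

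Markers of other cell types were read beside these results. Fibroblast and preadipocyte markers moved with the knockdown: of 13 tested 12 were higher and 1, Dlk1, lower by 0.83 (Pdgfra, Dpt and S100a4, described above, are in this list), and the summed signal of the list (on the linear scale) was 71000 to 77300 on the scrambled and 117000 to 121000 on the hairpin 2 arrays. Of the adipocyte markers Adipoq, Fabp4 and Lpl were at -0.01, 0.03 and 0.02 and did not pass the test, Pparg fell by 0.56, Cidec by 0.25 and Pnpla2 by 0.20, and Car3 rose by 0.42; their summed signal was 148000 to 153000 against 146000 to 147000. Leukocyte markers summed to 2190 to 3180 against 1600 to 2000, with Ptprc, Adgre1, Itgam, Mrc1 and Cd163 below the limit in both groups, Cd68 higher by 1.18 and Laptm5 lower by 1.82. The median of the leukocyte markers did not fall with the sum, at 5.64 to 5.70 against 5.69 to 5.91. The other tested Laptm5 probe set was at -0.05 and was not called. Endothelial markers summed to 467 to 483 against 456 to 506 with Pecam1, Cdh5 and Vwf below the limit, and muscle markers to 1220 to 1330 against 1440 to 1490, with Myod1 and Myog below it, Des up by 0.62 and Myh11 down by 0.50. Epithelial and neural markers summed to 822 to 876 against 803 to 860, with Cdh1 below the limit. In such bulk RNA, more cells of a type and more RNA per cell cannot be told apart, and the part that less differentiated cells have in the rises above was not tested.

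The direct comparison of the hairpins asked which of these changes were larger with hairpin 2 than with hairpin 1. Over all genes 3702 of 12735 differed between the hairpins (29.1%), and of the 145 genes named by rule other than Ebf1, 96 did. Ebf1 itself was lower with hairpin 2 than with hairpin 1 by 0.50 (adjusted p = 0.00351). Of the 3 other tested Ebf1 probe sets, those at -0.61 and -0.52 were called. The third, at -0.27, was not (limma adjusted p = 0.278). Of the 15 largest rises 14 were higher with hairpin 2 than with hairpin 1, the exception being Dpt at -0.05 (adjusted p = 0.750). Of the 15 largest falls 11 were lower with hairpin 2, and Colec11, Dtd1, Laptm5 and Hpx did not pass the test, at -0.13, -0.10, -0.60 and 0.10. The genes had been picked for their size with hairpin 2, which itself favours a larger value there than with hairpin 1.

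**Figure D5:**
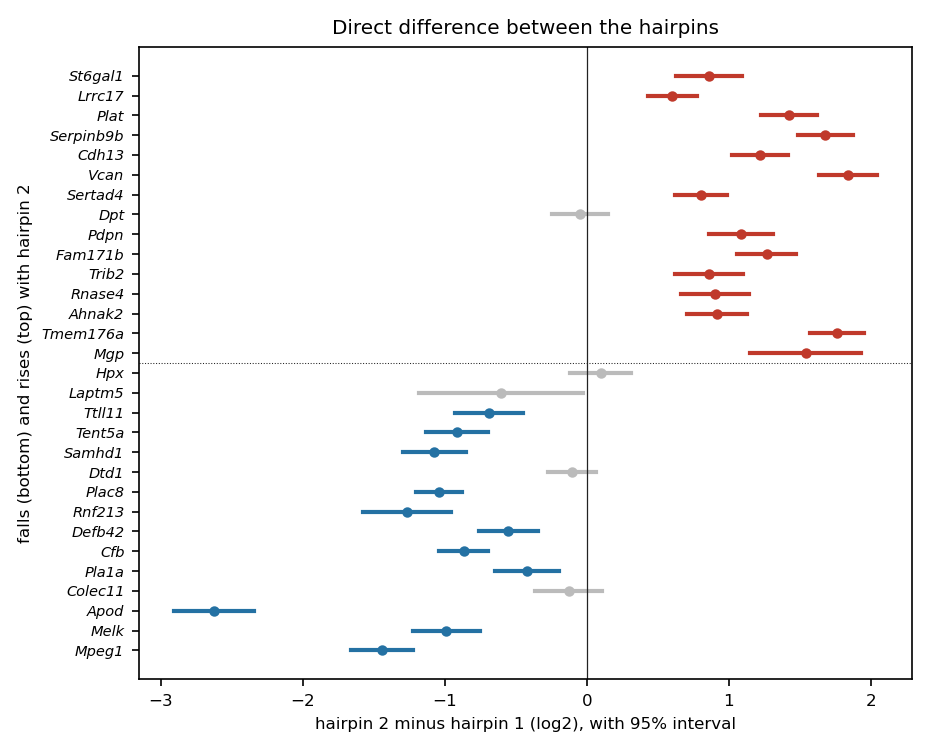
Difference between the hairpin 2 and hairpin 1 arrays (log2, horizontal axis) with its 95% interval for the 15 genes that rose most (above the dotted line) and the 15 that fell most (below it) with hairpin 2; red and blue mark an adjusted p below 0.05 and grey the rest. Vcan at 1.84 and Tmem176a at 1.76 lie farthest to the right, Apod at -2.62 farthest to the left, and 5 genes are grey.

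The contrasts of each hairpin share the scrambled arrays, so their values are given side by side. Apod was at -4.06 with hairpin 2 and -1.44 with hairpin 1, and differed by -2.62 between them (adjusted p = 1.37e-09). Vcan was at 2.35 and 0.52, Tmem176a at 2.20 and 0.43, and Serpinb9b at 2.39 and 0.71. Some genes changed in opposite directions. Gpt2 rose by 0.84 with hairpin 2 and fell by 1.52 with hairpin 1, a difference of 2.36 (adjusted p = 2.37e-11), and Pbx3 rose by 1.12 and fell by 0.48, a difference of 1.60 (adjusted p = 2.54e-08). Rgs12 was at 0.80 and -0.28.

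Several genes described above had a change with hairpin 2 and none that passed the test with hairpin 1 on the probe set used, and in these the difference between hairpins was itself called: Sema3g (1.83 and 0.27, difference adjusted p = 1.92e-07), Angpt2 (1.05 and 0.10), Snai2 (0.99 and 0.07), Aldh1a1 (1.05 and 0.03) and Lgals9 (-1.28 and -0.05). The same held for Rdh10 (1.00 and 0.12), Slc40a1 (1.20 and 0.25), Adm (-1.23 and -0.16) and Uxs1 (-1.18 and 0.18), but on another probe set of each the hairpin 1 arrays did not overlap the scrambled arrays. Another Adm probe set read 9.77, 9.73 and 9.57 with the scrambled hairpin, 9.11, 9.05 and 8.72 with hairpin 1 and 8.27, 7.96 and 8.26 with hairpin 2. Another Uxs1 probe set read 10.22, 10.26 and 10.08, then 9.99, 9.92 and 9.58, then 8.96, 8.84 and 9.16. On those other probe sets the hairpins still differed, by 0.98 for Rdh10, 0.95 for Slc40a1, -0.80 for Adm and -0.84 for Uxs1. For others the difference between hairpins was not called, which does not show that they were equal: Efnb2 (1.04 and 1.05), Plxnb2 (0.65 and 0.64), Cbr2 (1.16 and 1.19), Ehd2 (0.67 and 0.70), Btc (-1.27 and -1.43) and Hpx (-1.81 and -1.91). A few were larger with hairpin 1, namely Hbegf (0.84 and 1.51), Stmn1 (1.21 and 1.91), Anxa3 (0.91 and 1.28) and, in the other direction, Rps25 (-0.43 and -0.84). Whether the differences follow the depth of the knockdown or other effects of a hairpin sequence cannot be told apart with 1 hairpin at each depth.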

How the data were processed

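Gene expression was measured on 9 Affymetrix mouse arrays, 3 a group, and the 3 scrambled and 3 hairpin 2 arrays were compared. The deposited values are log2 values that the authors computed with RMA, per the submitters' processing notes; its version is not given in the sources used here. Of 45101 probe sets, 64 controls were left out, 34945 name 1 gene symbol, 932 several and 9160 none; 34741 of those with 1 symbol were found by Entrez identifier, and 0 symbols changed. Each gene was read from its brightest 1-symbol probe set by mean level over the 9 arrays (18193 genes), and 12735 genes with a mean of at least 5.72, the 30th percentile, were tested. Group means of all 9 arrays were modelled in R 4.3.3 by limma 3.58.1 (lmFit, eBayes with a trend), with two-sided p-values adjusted by Benjamini-Hochberg over the genes tested, and adjusted p below 0.05 as the call. The fit was tested on simulated data. There were 0 value columns without a sample. Named genes are Ebf1, up to 4 called members of each class with the largest changes and groups that do not overlap, and the 15 highest and 15 lowest of all genes outside interferon, antigen presentation and chemokine families and gene models without a proper name. The comparison, classes and rule were chosen with earlier results of these data known, and further class members named as examples were chosen after their values were seen. Alternatives were quantile normalization, equal array medians, 2 other filters, the mean of all probe sets, the 6 arrays alone, no trend, array weights, the replicate number as a block, and each array left out. The repeat numbers were not taken to pair the arrays, since no label says that they do.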

Additional observations from a re-analysis of the deposited data

Results flagged for a closer look

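Probe sets with no gene symbol in the platform annotation were outside the comparison of genes and held a signal of their own. Of 3764 such probe sets bright enough to test, 550 were higher and 310 lower with hairpin 2 (22.8% by limma), and 63 changed by at least 1 log2 unit, 30 up and 33 down. The probe set with the deepest fall read 12.12, 12.25 and 12.26 on the scrambled arrays and 6.58, 6.96 and 6.93 on the hairpin 2 arrays, a difference of -5.38. The next 3 probe sets were at -4.45, -3.16 and -2.54. What these probe sets measure was not determined here.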

How the results depend on the processing

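The count of genes changed with hairpin 2 was 4430, lay between 3567 and 4067 with each array left out, and reached 5347 with array weights. The count of changes of at least 1 log2 unit was 423 and lay between 331 (mean of all probe sets) and 451, and Ebf1 lay between -1.07 and -1.38. Genes that differed between hairpins numbered 3702, 5990 with array weights and 2880 to 4664 with each array left out. With the replicate number as a block 4470 genes changed with hairpin 2 and 3761 between hairpins. Deviations of same-numbered scrambled and hairpin 2 arrays correlated at 0.041, -0.234 and -0.293, so the numbers were not taken to pair the arrays. Those of differently numbered arrays correlated at -0.098 to 0.31. With 3 arrays a group, such values cannot exclude a pairing or a shared batch. The share of rises among the changed genes was 61.9%, 57.0% with quantile normalization and up to 64.6% with an array left out. Of 2148 values of named genes under the alternatives, 2140 kept direction and call, 8 lost the call and 0 turned; the 8 were in Sufu, Zeb2, Aqp1 and Eif4g3. Aqp1 was then at 0.30 to 0.41. Eif4g3 had an adjusted p of 0.0526 without the first scrambled array and 0.0621 without the second hairpin 2 array. The class medians of Notch (-0.064 to 0.015) and Hippo genes (-0.054 to 0.017) crossed 0, as did those of autophagy, caveolae, chromatin, EGF, chaperone and semaphorin genes. Genes near the floor or ceiling of the array have compressed differences.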
